A study of Mus musculus with 22 samples.

Results

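The 8 genes described here make up the cGAS-STING pathway of cytosolic DNA sensing as it was named for this work: *Tmem173* (now *Sting1*, STING), *Mb21d1* (now *Cgas*, cGAS), *Ddx41*, *Tbk1*, *Ikbke*, *Irf3*, *Trex1* and *Samhd1*. They were chosen by name and not by their values, out of 55401 gene identifiers in the count table. Counts were present for 7 of them, and *Trex1* was listed at 0 in all 22 libraries. The data are RNA-seq counts from mouse embryonic fibroblasts (MEFs), primary cells that stop dividing and become senescent when passaged in atmospheric oxygen. The *S6K1* set held 4 libraries of early-passage WT MEFs (passage 3), 4 of late-passage WT MEFs (passage 8) and 3 of late-passage *S6K1* KO MEFs (passage 8). In the *S6K1/S6K2* set there were 4 early-passage WT and 4 late-passage WT libraries and 3 libraries of late-passage MEFs that lacked both kinases (DKO), at the same passages. No KO or DKO library came from early passage.

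S6K1 and S6K2 are ribosomal protein S6 kinases that act downstream of mTOR. WT and *S6K1* KO MEFs were prepared from embryos of the same mothers, whereas DKO embryos came from *S6K2*-null parents and their WT controls from other mothers earlier in the breeding, so that genotype and litter cannot be told apart in the DKO comparisons. The labels do not tie libraries to embryos, so the P values measure the spread between these libraries.

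In this pathway, cGAS binds double-stranded DNA in the cytosol and makes the cyclic dinucleotide cGAMP. cGAMP binds STING on the endoplasmic reticulum, STING moves to the Golgi and recruits the kinase TBK1, and TBK1 phosphorylates the transcription factor IRF3, which enters the nucleus and induces type I interferon and other antiviral genes. Senescent fibroblasts can carry chromatin fragments in the cytosol, and cGAS-STING signalling is known as one driver of their inflammatory secretome. The pathway is switched on largely by binding and phosphorylation, which transcript counts do not measure.

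Total counts were 10742454 to 17314832 per library. *Rps6kb1*, which encodes S6K1, averaged 63.5 CPM (normalised counts on TMM-scaled library sizes, relative to a library of 1000000 counts) in late WT MEFs of the *S6K1* set and 20.0 CPM in KO MEFs, and 73.8 and 23.9 CPM in late WT and DKO MEFs of the other set. *Rps6kb2*, which encodes S6K2, averaged 13.2 CPM in late WT and 0.812 CPM in DKO MEFs. All 12 fibroblast markers were detected in every group. The 19 macrophage markers summed to 514 to 1151 CPM in early WT, 5651 to 11709 CPM in late WT and 3775 to 5096 CPM in KO MEFs of the *S6K1* set, and to 632 to 2108, 7821 to 13353 and 980 to 3616 CPM in early WT, late WT and DKO MEFs of the *S6K1/S6K2* set, and none was at 0 in any group. In bulk RNA, fewer cells of a type and less RNA per cell cannot be told apart. Y-linked genes were above 1 CPM in 12 of the 22 libraries, including all 3 KO libraries, 3 of the 4 late WT libraries of the *S6K1/S6K2* set and 1 of the 4 late WT libraries of the *S6K1* set.

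Per kilobase of exon, 4 of the genes had the higher levels in all 6 groups, and their order changed between groups. *Tmem173* led in early WT MEFs, with group means of 22.6 CPM per kb in the *S6K1* set and 30.0 CPM per kb in the *S6K1/S6K2* set. In late WT MEFs it averaged 15.2 and 14.6 CPM per kb, and in KO and DKO MEFs 15.7 and 11.6 CPM per kb. *Ddx41* had group means of 15.3 to 20.8, *Irf3* of 16.6 to 17.4 and *Tbk1* of 10.3 to 14.6 CPM per kb, so that *Tmem173* was below *Ddx41* and *Irf3* in all 4 late-passage groups. In DKO MEFs it was also below *Tbk1*, at 12.8 CPM per kb, and in late WT MEFs of that set both averaged 14.6. *Samhd1* had group means of 4.22 to 7.75, *Ikbke* of 1.96 to 2.34 and *Mb21d1* of 0.725 to 1.91 CPM per kb. *Mb21d1*, the transcript of the sensor cGAS, had the lowest mean of the 7 in each group. The order of the genes depends on the lengths used, which covered all exons of a gene in the GENCODE vM1 annotation. These were 9154 bases for *Samhd1* and 9018 for *Ikbke*, against 3187 for *Irf3* and 2302 for *Tmem173*. Without division by length, *Samhd1* averaged 54.7 CPM over all libraries, *Irf3* 54.1 and *Tmem173* 43.0 CPM. Within genes, the highest library exceeded the lowest by 4.76 times for *Mb21d1*, 3.41 times for *Tmem173* and 2.48 times for *Samhd1*, but only by 1.34 times for *Irf3*.

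*Trex1* encodes the main 3′ DNA exonuclease of the cytosol, which removes the ligand of cGAS. Its identifier had 0 counts in each library, where 3 counts correspond to 0.173 to 0.279 CPM. The gene lies at chr9:109057932-109059723 (GRCm38.p6, minus strand), inside the span of *Atrip* on the same strand in the GENCODE vM1 annotation, and RefSeq also lists a read-through transcript, *Atrip-trex1*, over it. *Atrip* had 137 to 279 counts per library. Reads shared by overlapping genes can be left uncounted by a gene counter, and whether this set *Trex1* to 0 was not tested, so no statement on *Trex1* expression is made.

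**Figure D1:**
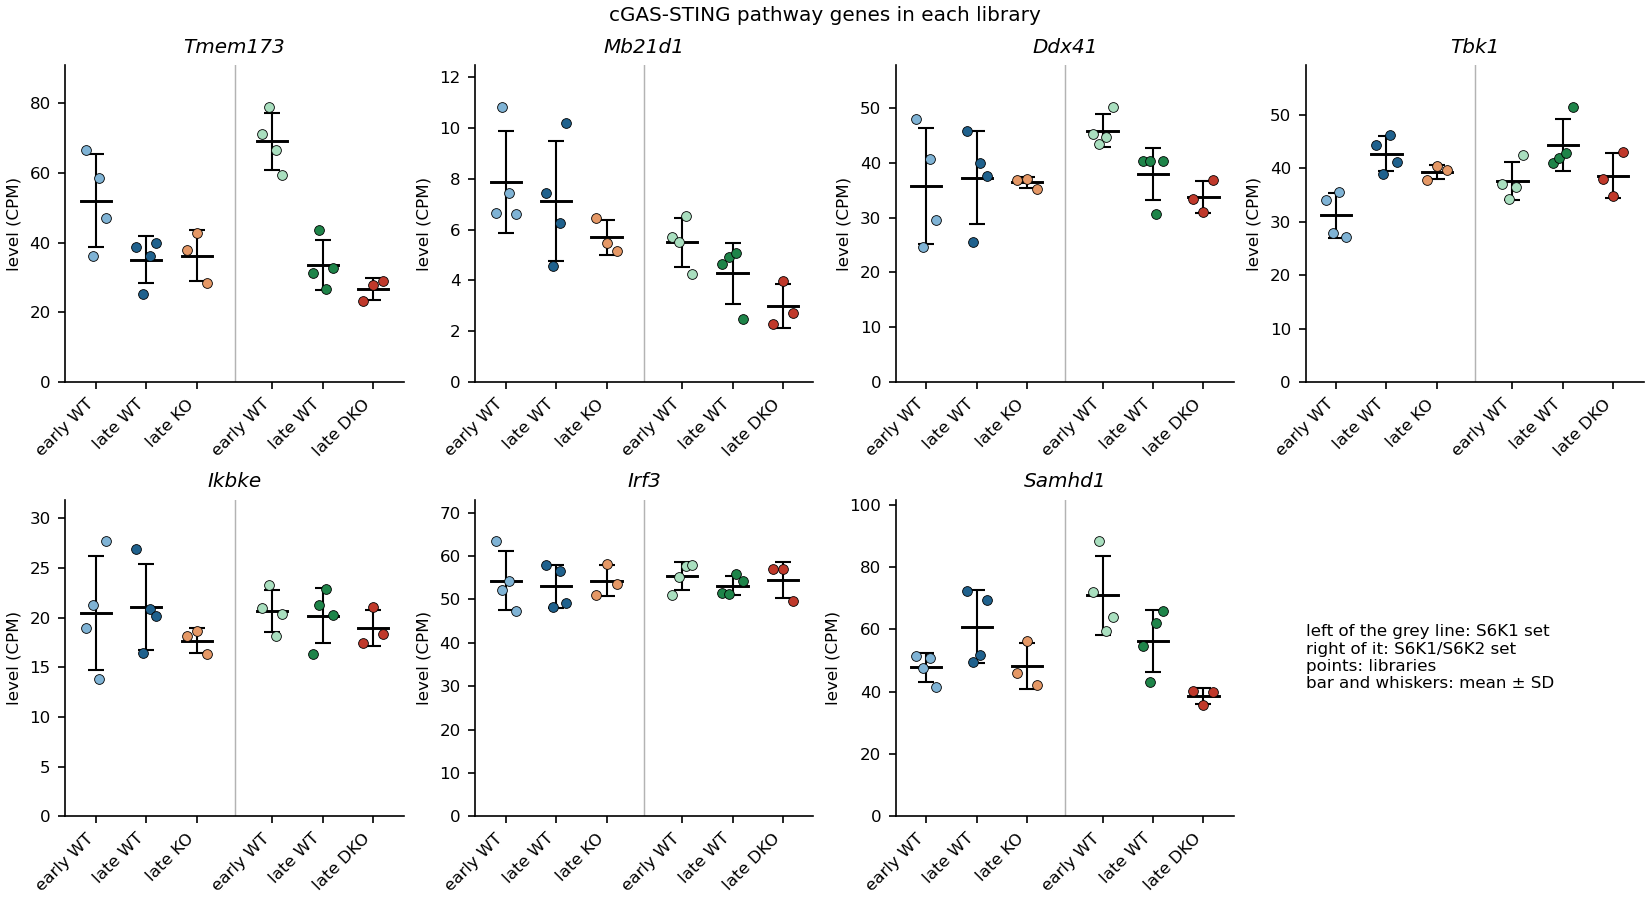
Levels of the 7 detected cGAS-STING pathway genes in CPM (vertical axis, from 0) in each library, with early WT, late WT and KO MEFs of the S6K1 set left of the grey line and early WT, late WT and DKO MEFs of the S6K1/S6K2 set right of it. Points are libraries, bars and whiskers are mean ± SD, and the clearest separation is that of Tmem173 in the S6K1/S6K2 set, where early WT libraries lie between 59.5 and 79.0 CPM and late WT libraries between 26.5 and 43.7 CPM.

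*Tmem173*, which encodes the adaptor STING, had a lower mean level in late than in early WT MEFs of both sets, and the difference passed the test in the *S6K1/S6K2* set. In the *S6K1/S6K2* set, the 4 early WT libraries had 71.0, 79.0, 66.6 and 59.5 CPM, and the 4 late WT libraries had 31.2, 43.7, 26.5 and 32.7 CPM. The lowest early library was above the highest late library. *Tmem173* fell 2.06-fold, from 69.0 ± 8.18 to 33.5 ± 7.25 CPM (SD, n = 4 and 4), with a log2 fold change of −1.01 ± 0.16 (SE; 95% interval −1.35 to −0.68; adjusted P = 0.00203, edgeR quasi-likelihood test). It was the only one of the 7 tested pathway genes that passed a false discovery rate of 5% in this comparison, in which 13.2% of all 14365 genes tested passed. The call was kept in all 17 alternatives, with adjusted P from 1.15e-07 to 0.00901.

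In the *S6K1* set, *Tmem173* had 66.5, 36.0, 58.6 and 47.0 CPM in early WT and 38.8, 25.2, 36.3 and 39.9 CPM in late WT libraries. The second early library lay inside the range of the late libraries, so the groups overlapped. The difference of −0.58 ± 0.22 on the log2 scale (95% interval −1.05 to −0.11) did not pass (adjusted P = 0.102). It passed in 2 of the 17 alternatives: without that early WT library (adjusted P = 0.0468) and in the fit on all 6 groups (adjusted P = 0.0460). The change with passage was not shown to differ between the sets, since the difference between the log2 fold changes was 0.47 (95% interval −0.10 to 1.04; adjusted P = 0.603).

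Loss of S6K1 was not accompanied by a detectable difference in *Tmem173*. KO libraries had 37.8, 42.6 and 28.3 CPM, overlapping the late WT libraries, and the log2 fold change of 0.05 had a 95% interval of −0.46 to 0.55 (adjusted P = 0.963). DKO libraries had 23.1, 27.8 and 28.9 CPM, a mean of 26.6 ± 3.08 CPM (SD, n = 3). This was the lowest mean of the 6 groups, but it overlapped that of late WT MEFs, and the log2 fold change of −0.35 (95% interval −0.71 to 0.02) did not pass (adjusted P = 0.305). Against early WT MEFs of their set, DKO MEFs had 2.59-fold less *Tmem173* (log2 fold change −1.36, 95% interval −1.74 to −0.98; adjusted P = 0.000699), a comparison that shares its early libraries with that of late WT MEFs. The summed macrophage markers moved with passage in WT MEFs, and in KO MEFs that sum was 3775 to 5096 CPM, below all late WT libraries of that set. In DKO MEFs the sum was 980 to 3616 CPM and overlapped that of early WT MEFs. The part of these markers in the levels of *Tmem173* was not tested.

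*Mb21d1* encodes cGAS, the enzyme that makes cGAMP, and *Ddx41* a DEAD-box helicase reported to sense DNA upstream of STING. *Mb21d1* had only 27 to 145 counts per library, so its intervals are the widest of the pathway. In the *S6K1* set it had 6.65, 10.9, 7.46 and 6.60 CPM in early WT, 7.45, 4.56, 6.27 and 10.2 CPM in late WT and 6.46, 5.47 and 5.15 CPM in KO libraries. In the *S6K1/S6K2* set it had 5.69, 5.51, 6.56 and 4.24 CPM in early WT, 4.65, 4.91, 5.09 and 2.49 CPM in late WT and 2.28, 3.97 and 2.72 CPM in DKO libraries. Late WT libraries overlapped the early WT and the KO or DKO libraries in both sets. The log2 fold changes were −0.15 (95% interval −0.72 to 0.41) and −0.33 (−0.92 to 0.26) with passage, −0.32 (−0.94 to 0.30) in KO and −0.54 (−1.20 to 0.13) in DKO against late WT MEFs, and none passed. All 4 intervals reach past a 1.5-fold fall, so a fall of that size in *Mb21d1* was not excluded at this depth and spread, whereas none reaches a 1.5-fold rise.

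*Ddx41* had 48.0, 24.6, 40.7 and 29.5 CPM in early WT, 45.7, 25.6, 40.0 and 37.6 CPM in late WT and 36.9, 37.1 and 35.3 CPM in KO libraries of the *S6K1* set. The WT groups of this set spanned the same range, with log2 fold changes of 0.06 (95% interval −0.42 to 0.53) with passage and −0.03 (−0.55 to 0.48) in the absence of S6K1. Libraries of the *S6K1/S6K2* set had 45.3, 43.4, 44.7 and 50.3 CPM in early WT, 40.4, 40.4, 30.7 and 40.3 CPM in late WT and 33.4, 31.0 and 36.9 CPM in DKO libraries. Here every early WT library was above every later one, but the change with passage of −0.24 (−0.50 to 0.01) did not pass (adjusted P = 0.176).

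*Tbk1* encodes the kinase that STING recruits and that phosphorylates IRF3. In the *S6K1* set it had 34.1, 28.0, 35.6 and 27.2 CPM in early WT and 44.4, 39.0, 46.3 and 41.3 CPM in late WT libraries. The groups did not overlap, and *Tbk1* rose 1.37-fold, from 31.2 ± 4.23 to 42.8 ± 3.24 CPM (SD, n = 4 and 4; log2 fold change 0.45 ± 0.13, 95% interval 0.17 to 0.73; adjusted P = 0.0390). It was the 1 gene of the 7 tested that passed here, where 12.9% of all 14132 genes tested passed. The call held in 8 of the 17 alternatives. It was lost without a filter on low counts (adjusted P = 0.135), in a fit on these 2 groups alone (0.0616), without early WT library 2 (0.0958) or 4 (0.0863), without any of the late WT libraries (0.0526 to 0.0818) and without KO library 3 (0.0540), while the log2 fold change stayed between 0.39 and 0.55.

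*Tbk1* of the *S6K1/S6K2* set had 37.2, 34.2, 36.6 and 42.6 CPM in early WT and 41.0, 41.9, 43.0 and 51.6 CPM in late WT libraries. The fourth early library lay among the late ones, and the log2 fold change of 0.27 (95% interval 0.01 to 0.52) did not pass (adjusted P = 0.141). KO libraries had 37.8, 40.5 and 39.7 CPM and DKO libraries 38.1, 34.8 and 43.1 CPM. Both groups overlapped their late WT MEFs, with log2 fold changes of −0.12 (−0.43 to 0.18) and −0.21 (−0.49 to 0.06).

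Among the genes of the pathway that passed a test, the promoter windows of *Tbk1* and *Samhd1* held a GC box, and these stretches are shown, from RefSeq windows on GRCm38.p6 that reach from 250 bases before to 50 bases after a start. That of *Ddx41* held none. Windows were found for 7 of the 8 genes, all but *Tmem173*. Position −1 is the base before the start, and capitals mark GC boxes (GGGCGG on either strand), the motif of Sp family factors. The stretch of *Tbk1* is chr10:121586795-121586914, that of *Samhd1* chr2:157135207-157135326, and both are printed on the minus strand.
Tbk1 −120 to −1: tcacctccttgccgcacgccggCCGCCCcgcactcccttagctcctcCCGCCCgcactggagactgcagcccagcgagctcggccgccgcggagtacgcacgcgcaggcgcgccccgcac
Samhd1 −230 to −111: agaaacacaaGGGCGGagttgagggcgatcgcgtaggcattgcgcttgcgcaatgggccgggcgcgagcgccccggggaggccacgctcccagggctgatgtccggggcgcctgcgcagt
A GC box was present in the windows of 4 of the 7 genes (*Tbk1*, *Irf3*, *Trex1* and *Samhd1*) and in 35.66% of all 32851 windows.

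*Ikbke* encodes IKKε, the kinase most closely related to TBK1. It had 13.9 to 27.7 CPM over the 22 libraries, with group means of 20.4 in early WT, 21.1 in late WT and 17.7 CPM in KO MEFs of the *S6K1* set and of 20.7, 20.2 and 19.0 CPM in early WT, late WT and DKO MEFs of the *S6K1/S6K2* set. All groups overlapped. With passage the log2 fold changes were 0.04 (95% interval −0.41 to 0.50) and −0.01 (−0.30 to 0.29), and they were −0.26 (−0.75 to 0.24) in KO and −0.11 (−0.43 to 0.22) in DKO against late WT MEFs.

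*Irf3* encodes the transcription factor that TBK1 activates, and it had the narrowest range of the pathway. In the *S6K1* set it had 63.5, 52.2, 54.3 and 47.4 CPM in early WT, 57.9, 48.1, 56.7 and 49.3 CPM in late WT and 51.1, 58.2 and 53.6 CPM in KO libraries. In the *S6K1/S6K2* set it had 51.0, 55.2, 57.8 and 58.0 CPM in early WT, 51.5, 51.2, 55.9 and 54.2 CPM in late WT and 56.9, 57.0 and 49.6 CPM in DKO libraries. All 6 groups overlapped, with means between 53.0 and 55.5 CPM. The 4 log2 fold changes with passage and genotype lay between −0.04 and 0.03, and the widest of their 95% intervals, −0.32 to 0.24 with passage and −0.27 to 0.33 in KO MEFs, were both in the *S6K1* set. *Bcl2l12* overlaps *Irf3* on the opposite strand in GENCODE vM1, and the strand setting of the counting was not given in the sources used here.

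*Samhd1* encodes a dNTP triphosphohydrolase, known as an antiviral factor, whose loss activates cGAS-STING signalling. In the *S6K1* set it had 51.5, 47.6, 50.9 and 41.4 CPM in early WT, 72.3, 49.7, 51.7 and 69.3 CPM in late WT and 46.0, 56.4 and 42.2 CPM in KO libraries. In the *S6K1/S6K2* set it had 71.9, 88.4, 59.4 and 64.0 CPM in early WT, 54.7, 43.1, 61.9 and 65.8 CPM in late WT and 40.3, 35.7 and 39.9 CPM in DKO libraries. Its DKO libraries were below all libraries of the other 5 groups.

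Against late WT MEFs, *Samhd1* in DKO MEFs was 1.46-fold lower with no overlap (log2 fold change −0.56 ± 0.17, 95% interval −0.93 to −0.19), which did not pass in edgeR (adjusted P = 0.0856) but did in DESeq2 (adjusted P = 0.0459), 1 of 17 alternatives. None of the 7 genes passed in this comparison in edgeR, where 4.78% of all genes tested passed. Of the 7, 1 (*Samhd1*) had an unadjusted P under 0.05 in edgeR, beside 2643 of all 14365 genes tested. DESeq2 called 1 of the 7, beside 8.4% of all genes tested. In KO MEFs the log2 fold change of *Samhd1* was −0.34 (95% interval −0.71 to 0.04; adjusted P = 0.534). None of the 7 genes passed in KO against late WT MEFs in edgeR, where 0.0425% of all genes tested, 6 genes, did. None of them had an unadjusted P under 0.05 there, DESeq2 called none of them, and their adjusted P values in edgeR were 0.534 to 0.975. The summed macrophage markers were lower in KO and in DKO MEFs than in late WT MEFs of the same set, without overlap. They overlapped between DKO and early WT MEFs, and their part in the level of *Samhd1* was not tested.

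**Figure D2:**
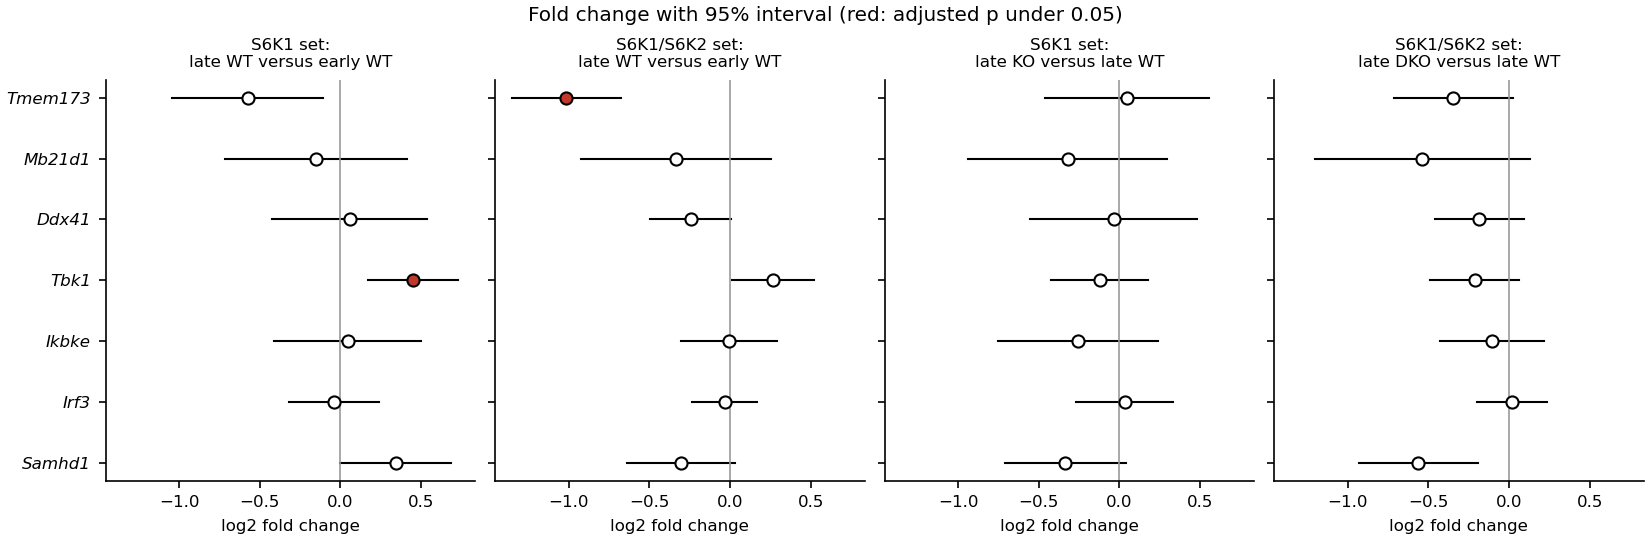
Log2 fold changes (horizontal axis) of the 7 detected cGAS-STING pathway genes in the passage comparisons of WT MEFs and in the comparisons of KO and DKO with late WT MEFs, with lines for the 95% interval and red points for adjusted P under 0.05 (edgeR). Only Tmem173 in the S6K1/S6K2 set (−1.01) and Tbk1 in the S6K1 set (0.45) are red, and the points of Irf3 lie close to 0 in all panels.

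Late-passage KO and DKO MEFs were also set against early WT MEFs, which combines passage and genotype and uses the same control libraries as above. In DKO MEFs 3 of the 7 genes passed, where 18.3% of all genes tested did. They were *Tmem173*, *Samhd1* (1.84-fold lower, log2 fold change −0.86, 95% interval −1.23 to −0.49; adjusted P = 0.00615) and *Ddx41* (1.36-fold lower, −0.43, −0.70 to −0.15; adjusted P = 0.0364). The calls of *Tmem173* and *Samhd1* were kept in 17 of 17 alternatives, and that of *Ddx41* in 9 of 17. It was lost without a filter (adjusted P = 0.0693), in the fit on all 6 groups (0.129), without any of the early WT libraries (0.0585 to 0.0713) and without DKO library 1 (0.0788) or 2 (0.123). *Mb21d1* was 1.84-fold lower without overlap (−0.87, −1.53 to −0.21), with an adjusted P of 0.0662, and passed in 4 of 17 alternatives, which were DESeq2 (0.0326), the fit on all 6 groups (0.0499), the Y-linked covariate (0.0424) and leaving out late WT library 4 (0.0357). In KO MEFs none of the 7 genes passed in edgeR or DESeq2, where 11.2% of all genes tested did in edgeR and 18.9% in DESeq2. Unadjusted P values in edgeR were under 0.05 for 2 of them, *Tmem173* (log2 fold change −0.53) and *Tbk1* (0.33). Over all 14132 genes tested, 4029 had such a P value, so 2 of 7 is near the share over all genes.

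No gene of the pathway passed the test of a difference between the sets. For the change with passage, 0.712% of all 14886 genes tested passed in edgeR and 1.49% in DESeq2, and 0 of the 7 passed in either. In edgeR, 1421 of all genes tested had an unadjusted P under 0.05, among them 1 of the 7. This was *Samhd1*, whose log2 fold changes were 0.34 in the *S6K1* set and −0.30 in the *S6K1/S6K2* set, a difference of 0.68 (95% interval 0.21 to 1.14; adjusted P = 0.275). For KO or DKO against late WT MEFs, 0.00672% of all genes tested passed, which was 1 gene, *Rps6kb2*, and 0 of the 7 passed in either tool, none with an unadjusted P under 0.05. The median log2 fold change of the 7 genes was 0.04 and −0.24 with passage in the *S6K1* and the *S6K1/S6K2* set, −0.12 in KO and −0.21 in DKO against late WT MEFs, beside medians of −0.04, 0.01, −0.01 and −0.01 over all genes tested.

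Genes around the pathway were counted in 6 lists that hold the transport and breakdown of cGAMP, regulators of cGAS, the retention and traffic of STING, partners of TBK1 and IRF3, the breakdown and editing of nucleic acids and other cytosolic sensors. The counts called with passage are to be read against the 12.9% and 13.2% of all genes tested that were called in the *S6K1* and the *S6K1/S6K2* set. In KO against late WT MEFs none of their genes passed in edgeR or DESeq2, with unadjusted P values under 0.05 for 4 genes of nucleic acid breakdown, 2 other sensors and 0 in the other 4 lists. In DKO against late WT MEFs 1 gene of STING traffic and 3 of nucleic acid breakdown passed in edgeR and 0 in the other 4 lists, where 8 genes in all had an unadjusted P under 0.05 and DESeq2 called 1 gene of cGAMP transport and 3 other sensors. Over all genes tested, 0.0425% passed in edgeR in KO and 4.78% in DKO against late WT MEFs, and 1.85% and 8.4% in DESeq2. Unadjusted P values in edgeR were under 0.05 for 1499 of all 14132 genes in KO and 2643 of all 14365 in DKO MEFs.

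Of the 8 genes of cGAMP transport and breakdown, 0 rose and 1 fell with passage in the *S6K1* set, and 0 rose and 3 fell in the *S6K1/S6K2* set. The 1 call is near the share over all genes of 12.9%. Most of these genes encode membrane carriers. *Lrrc8b* was called in the *S6K1* set (log2 fold change −0.65), and *Lrrc8e* (−1.30), *Abcc1* (−0.87) and *Lrrc8c* (−0.81) in the other, where LRRC8 proteins are subunits of volume-regulated anion channels and ABCC1 is an export pump. All 8 log2 fold changes were below 0 in each set, with medians of −0.62 and −0.65. The numbers called ranged over the alternatives from 0 to 2 and from 2 to 5.

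Of 10 regulators of cGAS, 1 fell in the *S6K1* set, and 1 rose and 2 fell in the *S6K1/S6K2* set. The 1 call of the *S6K1* set is near the share over all genes of 12.9%, and that share was 13.2% in the other set. *Zcchc3*, a cofactor of DNA binding by cGAS, was the gene called in both (log2 fold changes −0.96 and −0.83). *Ttll4*, a glutamylase, fell (−0.75) and *Pqbp1*, a cofactor that brings cGAS to retroviral DNA, rose (0.32) in the *S6K1/S6K2* set. Alternatives called 0 to 3 and 2 to 3 genes of this list.

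Of 18 genes of STING retention, traffic and turnover, 1 rose and 1 fell in the *S6K1* set, and 2 rose and 3 fell in the *S6K1/S6K2* set. The 2 calls of the *S6K1* set are near the share over all genes. *Rnf5*, a ubiquitin ligase of STING, rose in both (log2 fold changes 0.65 and 0.55), and *Iigp1*, an interferon-induced GTPase, fell in both (−2.15 and −2.97). *Nlrx1* (−1.12), a mitochondrial inhibitor of STING, and *Surf4* (−0.43), a cargo receptor that returns STING to the endoplasmic reticulum, fell in the *S6K1/S6K2* set, and *Insig1*, which retains sterol-sensing proteins there, rose (0.50). *Npc1*, the lysosomal cholesterol transporter, was the 1 gene of this list called in DKO against late WT MEFs (−0.47; adjusted P = 0.0265), and 0 were called in 8 of 17 alternatives, which were no filter, the fits on 2 and on 6 groups, and leaving out any of the 3 DKO libraries or late WT library 2 or 4. That 1 call of 18 is near the 4.78% of all genes tested that passed in this comparison. The numbers called with passage ranged over the alternatives from 0 to 6 and from 2 to 6.

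Of 12 partners of TBK1 and IRF3, 2 rose and 1 fell in the *S6K1* set, and 1 rose and 2 fell in the *S6K1/S6K2* set, where 12.9% and 13.2% of all genes tested were called. The deubiquitinase gene *Cyld* (log2 fold change 0.58) and the adaptor gene *Traf3* (0.52) rose in the *S6K1* set, and *Tank* (0.59), which encodes a scaffold of TBK1, in the other. Those that fell were the interferon-induced *Usp18* in both sets (−1.53 and −2.85) and *Irf7* in the *S6K1/S6K2* set (−1.98), and both also belong to the list of target genes below. Alternatives called 0 to 4 and 2 to 3 genes.

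Of 11 tested genes of nucleic acid breakdown and editing, 2 rose and 0 fell in the *S6K1* set, and 4 rose and 1 fell in the *S6K1/S6K2* set. *Pld4*, a nuclease of the endolysosome known from myeloid cells, was at 9.90 ± 2.72 CPM in early and 96.3 ± 30.7 CPM in late WT MEFs of the *S6K1* set and at 15.5 ± 8.63 and 120 ± 31.0 CPM in those of the other (SD, n = 4 each; log2 fold changes 3.28 and 2.98). *Dnase1l1* rose in both sets (1.13 and 0.87) and the lysosomal nuclease gene *Dnase2a* in the second (0.83), whereas the RNA editing enzyme gene *Adar* fell there (−0.65). Alternatives called 2 to 4 genes in the *S6K1* set and 3 to 6 in the other, where 3 were called without early WT library 1 or 2, without late WT library 2 or with the Y-linked covariate. In DKO against late WT MEFs, *Pld4* (−2.18), *Dnase1l1* (−0.83) and the flap endonuclease gene *Fen1* (−0.78) fell, but none of the list passed without DKO library 2 or without DKO library 3, and 1 passed without late WT library 2. The macrophage markers rose with passage and fell in DKO MEFs as *Pld4* did, with 18 of 19 tested called higher in late WT MEFs of the *S6K1* set, 18 of 18 in the *S6K1/S6K2* set, and 17 of 18 called lower in DKO MEFs, a count that was 2 without either of those DKO libraries, 7 without late WT library 2, 6 without late WT library 3 and 5 without a filter. In KO against late WT MEFs edgeR called 0 of the 19 markers and DESeq2 called 5 lower, beside 0.0425% and 1.85% of all genes tested. Over all genes tested, 12.9% and 13.2% were called with passage in the 2 sets and 4.78% in DKO against late WT MEFs. The part of the macrophage markers in the changes of the genes of this list was not tested.

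Of 16 other cytosolic sensors, 1 rose and 1 fell in the *S6K1* set, and 1 rose and 4 fell in the *S6K1/S6K2* set. Over all genes tested, 12.9% and 13.2% were called, and the calls of the *S6K1* set are near that share. *Aim2*, the DNA sensor of an inflammasome, rose in both (log2 fold changes 2.35 and 2.74) from means under 1 CPM, at 0.739 and 0.795 CPM, to 3.91 and 5.18 CPM. The RNA sensor genes *Ddx58*, which encodes RIG-I (−0.78 and −1.25), and *Ifih1*, which encodes MDA5 (−1.18 in the *S6K1/S6K2* set), and the Z-nucleic acid sensor gene *Zbp1* (−2.19 there) fell. In DKO against late WT MEFs none passed in edgeR, 3 had an unadjusted P under 0.05, and DESeq2 called 3 lower. Of all 14365 genes tested there, 4.78% passed in edgeR, 2643 had an unadjusted P under 0.05, and DESeq2 called 5.92% lower. Alternatives called 1 to 4 and 3 to 9 genes with passage.

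**Figure D3:**
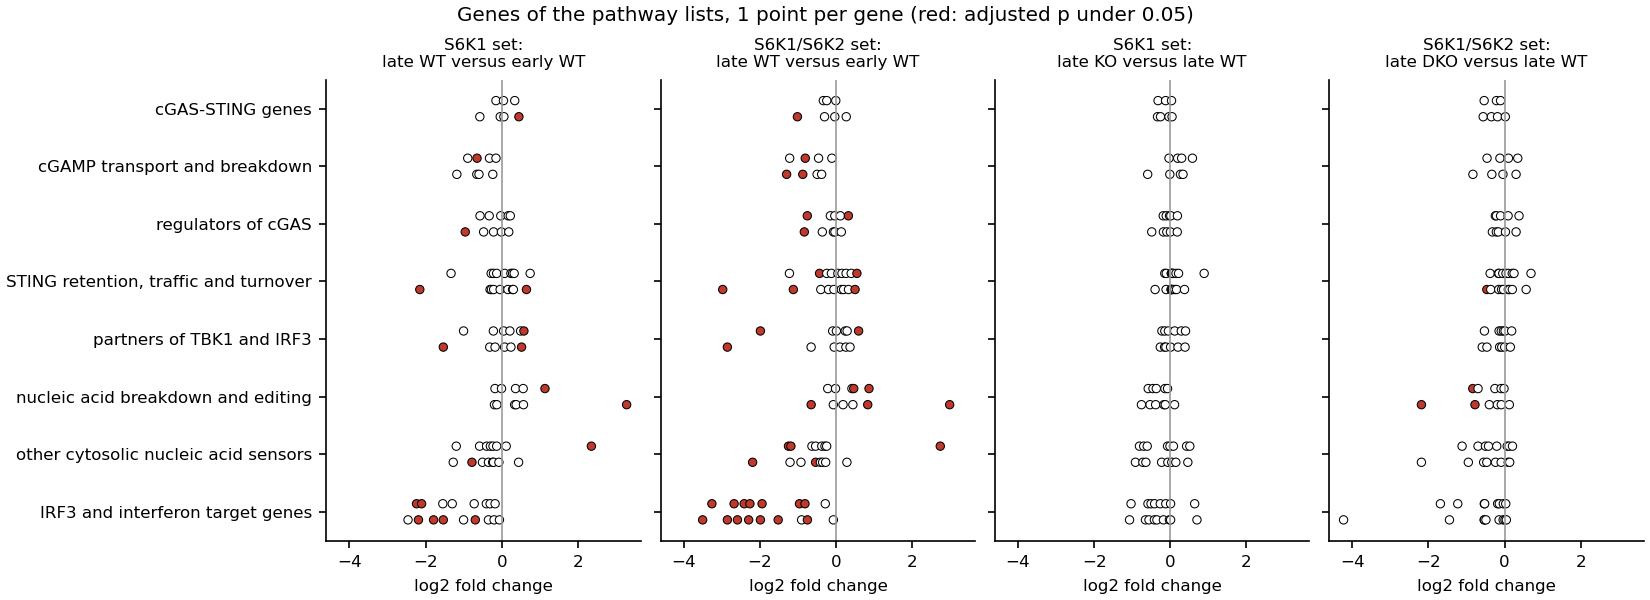
Log2 fold changes (horizontal axis) of each gene of the pathway and of the surrounding lists (rows) in the passage comparisons and in the comparisons of KO and DKO with late WT MEFs, 1 point per gene, red for adjusted P under 0.05 (edgeR). In the bottom row, 6 of 17 IRF3 and interferon target genes in the S6K1 set and 14 of 17 in the S6K1/S6K2 set are red with passage, all below 0, and none is red in the KO or DKO panel. Over all genes tested, 12.9% and 13.2% were called with passage, 0.0425% in the KO and 4.78% in the DKO comparison.

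Genes downstream of IRF3 passed the test with passage in both sets. The list of IRF3 and interferon target genes held 18 genes, of which 17 were tested, and *Ifnb1*, the interferon beta gene itself, had 4 counts in all 22 libraries together. The list summed to 642 to 1642 CPM in early WT, 324 to 717 CPM in late WT and 291 to 512 CPM in KO libraries of the *S6K1* set. The sums of the *S6K1/S6K2* set were 458 to 942 CPM in early WT, 208 to 390 CPM in late WT and 213 to 290 CPM in DKO libraries. Late WT libraries were below early WT libraries in the *S6K1/S6K2* set without overlap, and overlapped them in the *S6K1* set.

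**Figure D4:**
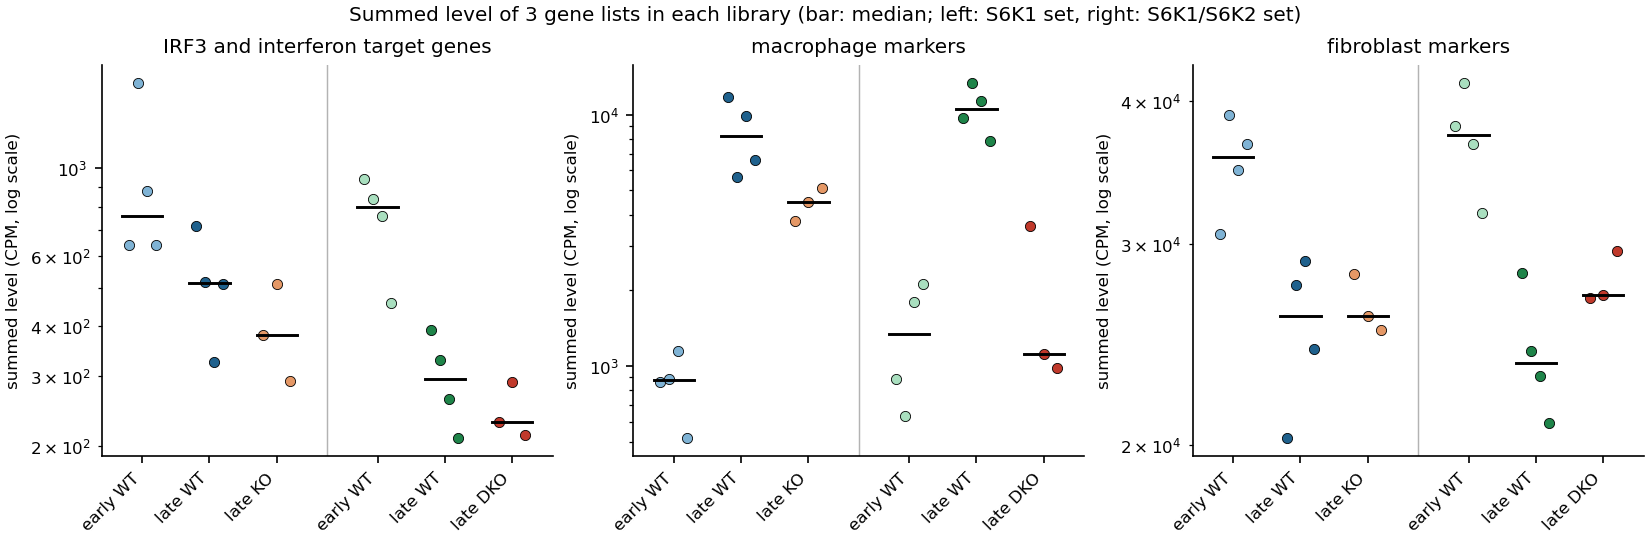
Summed CPM (vertical axis, log scale) of the IRF3 and interferon target genes, the macrophage markers and the fibroblast markers in each library, with the S6K1 set left and the S6K1/S6K2 set right of the grey line and bars at group medians. The target genes have their highest median in early WT MEFs of both sets, the macrophage markers in late WT MEFs, and the fibroblast markers in early WT MEFs.

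With passage, 0 target genes rose and 6 of 17 fell in the *S6K1* set, with a median change of −1.0 on the log2 scale, and 0 rose and 14 of 17 fell in the *S6K1/S6K2* set, with a median of −1.98. Over all genes tested, the medians were −0.04 and 0.01, 12.9% and 13.2% were called, and 5.97% and 4.89% were called lower. *Cxcl10* (−2.24), *Ifit1* (−2.19) and *Mx2* (−2.10) fell furthest among those called in the *S6K1* set at a mean of at least 1 CPM, and *Usp18* (−2.85), *Mx2* (−2.68) and *Isg15* (−2.59) in the other. *Isg15*, a ubiquitin-like protein of the antiviral response, had a mean of 176 CPM (range 87.6 to 336) in early WT and 51.0 CPM (19.9 to 69.1) in late WT libraries of the *S6K1* set, and 123 CPM (60.7 to 159) and 20.1 CPM (10.7 to 32.0) in those of the other, so that the groups did not overlap in either set. The count fell to 2 in the *S6K1* set without early WT library 2 or late WT library 3 and to 3 without a filter, and to 8 or 9 in the *S6K1/S6K2* set without early WT library 1, 2 or 3 or late WT library 3.

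In KO against late WT MEFs 0 of the 17 target genes passed in edgeR and in DESeq2, none with an unadjusted P under 0.05, and their median log2 fold change was −0.35. In DKO against late WT MEFs 0 passed in both tools, 2 with an unadjusted P under 0.05, and the median was −0.49. Of all 14365 genes tested in that comparison, 2643 had an unadjusted P under 0.05 in edgeR. Over all genes tested, 0.0425% passed in edgeR in KO and 4.78% in DKO against late WT MEFs. Against early WT MEFs, 8 of 17 were called in KO and 14 of 17 in DKO MEFs, where 11.2% and 18.3% of all genes tested were. The count of 8 was 2 to 10 over the alternatives, with 2 without KO library 3, 3 without KO library 1, 4 with no filter or with the Y-linked covariate, and 5 in the fit on 2 groups and without KO library 2, early WT library 2 or 3 or late WT library 2. The count of 14 was 10 to 15. The levels of *Irf3* itself overlapped in all of these groups, and the summed fibroblast markers were also lower in late than in early WT MEFs, at 20261 to 28992 against 30556 to 38876 CPM and 20920 to 28292 against 31888 to 41446 CPM. Only 2 of the 12 fibroblast markers, *Col1a1* and *Col1a2*, were called lower with passage in each set. In each set 4 of the 12 had log2 fold changes above 0. The part of these markers in the fall of the target genes was not tested.

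Of the target genes, *Stat2* was the 1 whose change with passage differed between the sets in edgeR, with 2 of the 17 at an unadjusted P under 0.05. Of all 14886 genes tested, 0.712% passed and 1421 had an unadjusted P under 0.05. *Stat2* encodes a component of the factor ISGF3, which carries the interferon signal to the nucleus. It had 37.4 ± 9.32 CPM in early and 32.6 ± 5.71 CPM in late WT MEFs of the *S6K1* set, and 65.0 ± 12.7 and 16.6 ± 2.43 CPM in those of the *S6K1/S6K2* set (SD, n = 4 each). The log2 fold changes of −0.20 and −1.94 differed by 1.77 (95% interval 1.11 to 2.44; adjusted P = 0.00623). *Stat2* was named after its values were seen.

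The core of the interferon-stimulated response element (GAAANNGAAA on either strand), to which IRF factors and ISGF3 bind, occurred in the promoter windows of 7 of the 13 target genes with a window, of 0 of the 7 pathway genes with a window and of 3.44% of all windows. Examples from target genes named above are shown with the core in capitals. The stretch of *Isg15* is chr4:156200865-156200906 on the minus strand, with 3 overlapping copies. That of *Ifit1* is chr19:34640785-34640813 on the plus strand with 2 copies, that of *Cxcl10* chr5:92349083-92349112 on the minus strand, and that of *Stat2* chr10:128270266-128270295 on the plus strand.
Isg15 −88 to −47: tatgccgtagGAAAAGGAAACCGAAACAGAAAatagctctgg
Ifit1 −104 to −76: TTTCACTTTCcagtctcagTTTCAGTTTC
Cxcl10 −223 to −194: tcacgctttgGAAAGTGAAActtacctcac
Stat2 −232 to −203: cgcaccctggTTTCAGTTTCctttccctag
A match is a description of the letters in these windows, and binding was not measured.

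Among 13006 genes at a mean of at least 1 CPM, those whose levels over the 22 libraries lay closest to *Tmem173* were *Plod1* and *Elovl5*, with mean absolute differences of 0.178 and 0.180 on the log2 scale after centring each gene. *Plod1* encodes a collagen lysyl hydroxylase and *Elovl5* a fatty acid elongase. Like *Tmem173*, they had their highest group mean in early WT and their lowest in DKO MEFs of the *S6K1/S6K2* set. As both genes were picked by this distance, the shared order is no separate result. The genes closest to *Tbk1* were *Stk11*, which encodes the kinase LKB1, *Acsl5* and *Ilvbl*, at 0.0837, 0.0908 and 0.0940. These are distances over libraries that also share passage, depth and cell composition, and no test was made.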

How the data were processed

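RNA-seq counts of 22 MEF libraries in 6 groups taken from the labels were analysed. The paper states stranded poly(A) libraries, single-end reads, TopHat mapping to mm9 and HTSeq counting, whereas the submitters' processing notes name STAR 2.7.1a and mm10, and 41.2% of the identifiers are absent from the mm9 GENCODE vM1 annotation. The deposited values are raw counts per gene, without normalization. Replicates differed by more than sampling noise.

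Counts were tested with edgeR 4.0.16 in R 4.3.3 (filterByExpr, TMM, robust quasi-likelihood F test, 3 groups of a set in 1 fit, Benjamini-Hochberg over all genes tested, threshold 0.05), and differences between sets as interactions over 22 libraries. Levels are CPM on TMM-scaled totals. Exon lengths came from vM1 and coordinates from RefSeq GRCm38.p6. *Rnaset2a* and *Rnaset2b* were not matched. Scripts were tested on simulated data.

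Alternatives were DESeq2 1.42.0, RLE scaling, no filter, fits on 2 or 6 groups, a Y-linked covariate and leaving out each library. The genes and lists were chosen with earlier results of these data known. Beyond the 8 genes and the targeted genes, up to 3 called genes per list, direction and comparison at a mean of at least 1 CPM, and the 3 genes most like each called pathway gene, were named, except 1 that is not reported here.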

Additional observations from a re-analysis of the deposited data

Results flagged for a closer look

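In late WT MEFs of the *S6K1/S6K2* set, 1 library stood apart from the other 3 for *Mb21d1*, at 2.49 CPM against 4.65, 4.91 and 5.09 CPM, and 1 for *Ddx41*, at 30.7 CPM against 40.3 to 40.4 CPM. They are different libraries, replicates 4 and 3. The gap was larger than the 95% critical value of Dixon's test in 2 of the 28 groups of 4 libraries examined, and chance flags about 1 in 20 groups.

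The change of *Stat2* with passage differed between the sets by 1.77 on the log2 scale (adjusted P = 0.00623, edgeR interaction test), being larger in the *S6K1/S6K2* set. The difference between the KO and DKO effects on *Rps6kb2* was 4.24 on the log2 scale, as *Rps6kb2* is deleted in the DKO MEFs only.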

How the results depend on the processing

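No paired analysis was possible because the numbers in the library titles are unique codes, shared by no libraries of different groups. Of 1078 log2 fold changes of pathway genes under alternatives, 58 changed sign, none of them called in either fit, 7 gained and 17 lost a call, and no called value reversed. Group means on plain totals moved by less than 1 SD in 42 of 42 cases (*Trex1*, at 0, left out). *Trex1* and *Ifnb1* could not be tested at their counts.

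Pathway genes called with passage in the *S6K1* set numbered 0 without a filter, 0 in the fit on 2 groups, 2 in that on 6 groups and 0 to 1 without 1 library, against 1. In DKO against late WT MEFs DESeq2 called 1, against 0. Over all genes, DESeq2 called 261 (against 6 in edgeR) in KO against late WT, 2845 (1892) with passage in the *S6K1/S6K2* set, 1206 (686) in DKO against late WT, 2675 (1578) in KO against early WT, 222 (106) for the difference between sets with passage and 64 (1) for that in knockouts. The Y-linked covariate gave 3265 genes (1827) with passage in the *S6K1* set and 38 in KO against late WT. The fit on 6 groups gave 16 in KO against late WT and 2564 in KO against early WT. No filter gave 43 in KO against late WT and 3 for the difference in knockouts.

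Leaving out 1 library gave 2 to 9 genes in KO against late WT, 885 to 2247 with passage in the *S6K1/S6K2* set, 97 to 783 in DKO against late WT, 540 to 2055 in KO against early WT, 1163 to 2757 in DKO against early WT and 1 to 5 for the difference in knockouts. The lowest were without *S6K1/S6K2* early WT library 1 (885), DKO library 2 (97 and 1163) and KO library 3 (540). The cause of these differences between settings was not tested.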
